A study of Mus musculus with 6 samples.

Results

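Klf9, Klf15, Zbtb16, Tsc22d3, Arrdc3 and Nedd9 are genes that the glucocorticoid receptor is known to switch on directly, and each codes for a protein that regulates other proteins or genes. These 6 genes were taken by symbol from the deposited hippocampal expression table of 2404 genes, and all 6 were found there once. They were measured in the hippocampus of male C57BL/6 mice, 7 to 8 weeks old when treatment began, with no transgene or deletion named. One group received CORT at 40 mg/kg by subcutaneous injection every day for 36 days, and the other received the vehicle (DMSO, Tween-80 and water) on the same days. Each group had 3 libraries, which the study calls biological replicates. The sample labels name the hormone cortisone, whereas the methods name corticosterone, the main glucocorticoid of rodents. The control columns of the table carry a wild-type heading in place of the vehicle label and were read as the vehicle group.

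Corticosterone crosses into the brain, binds the glucocorticoid receptor in the cytoplasm, and the receptor then moves to the nucleus and binds DNA elements near its target genes. The hippocampus carries this receptor at high levels and takes part in shutting off the stress response. Of the 6 genes, Klf9 and Klf15 code for Krüppel-like zinc finger factors that bind GC-rich and CACCC elements. Zbtb16 codes for PLZF, a zinc finger repressor with a BTB domain. Tsc22d3 codes for GILZ, a leucine zipper protein that restrains NF-kB and AP-1. Arrdc3 codes for an alpha-arrestin that brings NEDD4-family ubiquitin ligases to membrane receptors, and Nedd9 for a CAS scaffold that links adhesion sites to kinases.

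The promoters of these genes are shown because all 6 genes were higher after CORT, and their letters can be set beside the elements that the receptor and the Krüppel-like factors are known to bind. RefSeq promoter windows of 300 bases around a transcript start, on build GRCm38.p6, were matched by symbol for Klf9, Klf15, Tsc22d3, Arrdc3 and Nedd9, with 9 windows in all, and not for Zbtb16. This build is older than the GRCm39 named for the expression values. The first pair below belongs to the Krüppel-like factors, the third is the window of Tsc22d3 that holds a receptor half-site, and the fourth is the window of Arrdc3 with the most CACCC boxes. Capitals mark every match on either strand to the half-site AGAACA, to CACCC or to the GC box GGGCGG, with overlapping matches joined. The windows lie at chr19:23140976-23141275 on the plus strand (Klf9), chr6:90462326-90462625 on the plus strand (Klf15), chrX:140600473-140600772 on the minus strand (Tsc22d3) and chr13:80883134-80883433 on the plus strand (Arrdc3).
Klf9: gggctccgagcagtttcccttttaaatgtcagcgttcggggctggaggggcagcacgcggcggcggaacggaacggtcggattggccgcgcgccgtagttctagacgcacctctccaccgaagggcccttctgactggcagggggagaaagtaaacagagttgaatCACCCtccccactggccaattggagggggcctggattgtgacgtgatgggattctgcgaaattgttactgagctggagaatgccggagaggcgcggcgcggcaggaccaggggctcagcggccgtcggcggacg
Klf15: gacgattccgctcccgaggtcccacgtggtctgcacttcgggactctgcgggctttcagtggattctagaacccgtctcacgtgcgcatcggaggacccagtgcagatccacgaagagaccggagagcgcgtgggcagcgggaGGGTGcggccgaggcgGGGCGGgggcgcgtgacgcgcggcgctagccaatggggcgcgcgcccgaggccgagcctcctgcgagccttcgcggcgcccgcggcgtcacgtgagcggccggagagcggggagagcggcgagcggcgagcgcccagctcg
Tsc22d3: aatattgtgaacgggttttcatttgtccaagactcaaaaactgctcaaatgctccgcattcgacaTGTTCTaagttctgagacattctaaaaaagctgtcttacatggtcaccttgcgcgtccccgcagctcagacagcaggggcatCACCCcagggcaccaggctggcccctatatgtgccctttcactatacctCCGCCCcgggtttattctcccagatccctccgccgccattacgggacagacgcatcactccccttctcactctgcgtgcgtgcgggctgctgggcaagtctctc
Arrdc3: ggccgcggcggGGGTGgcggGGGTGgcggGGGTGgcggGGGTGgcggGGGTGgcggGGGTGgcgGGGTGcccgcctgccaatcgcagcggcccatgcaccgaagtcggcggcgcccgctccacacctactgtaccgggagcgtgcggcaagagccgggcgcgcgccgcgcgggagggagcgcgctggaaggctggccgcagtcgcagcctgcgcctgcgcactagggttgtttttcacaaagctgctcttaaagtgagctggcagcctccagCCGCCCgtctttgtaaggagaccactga

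The full receptor element, searched only as the exact letters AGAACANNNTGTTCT, was in 0 of the 9 windows, and in 3 of all 32851 RefSeq windows (0.00913%). Elements with other letters at the fixed positions were not counted. The half-site AGAACA, which is also part of the full element, was in 1 of the 9 windows, that of Tsc22d3 shown above, and in 19.0% of all windows. CACCC was in 8 of the 9 windows against 57.5% of all windows. The GC box was in 7 of 9 against 35.7%, and the Klf9 window held none. The GC content of the 9 windows ran from 48.7% to 73.3%. The shares among windows of like GC content were not computed, so these contrasts are not shown to be more than base composition. The Arrdc3 window shown held 7 CACCC matches in a repeated stretch near its 5′ end. The 9 windows come from 5 genes, and 2 of the Arrdc3 windows overlap. These counts describe letters in short windows, and no binding was measured in this series.

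Expression was given by the authors as TPM, a transcript abundance that takes out gene length and the size of the library, so that genes can be set beside each other. The table listed only genes that the authors had found to differ between the groups, so a low p for a listed gene is not independent evidence. Together the listed genes held 29.2% to 29.9% of a vehicle library and 30.1% to 31.5% of a CORT library. The number of reads behind a TPM is unknown here. CORT was set against vehicle by limma, on log2(TPM + 1), for 2241 genes that reached 1 TPM in 3 or more libraries, a filter that all 6 members passed in every library. A gene was called at a Benjamini-Hochberg adjusted p under 0.05 over those 2241 genes, and log2 fold changes and standard errors (SE) are on the log2(TPM + 1) scale.

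All 6 members were higher in the CORT group, with rises in mean TPM of 28.9% (Klf9) to 59.5% (Klf15). All 6 were called higher by limma, beside 25.8% of all genes tested that were called higher and 50.6% called in either direction. In all 6 the lowest CORT library stood above the highest vehicle library, which was also so for 35.4% of the genes tested. The median log2 fold change was 0.49 over the 6 members, 0.05 over all genes tested and 0.41 over the 579 genes called higher. By log2 fold change the members ranked 130 to 395 of the 2241 genes. The exact permutation test of each member (two-sided, 3 against 3 libraries) gave p = 0.1, the smallest this design allows. In whole hippocampus, a change per cell and a change in the number of cells that express a gene cannot be told apart.

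**Figure D1:**
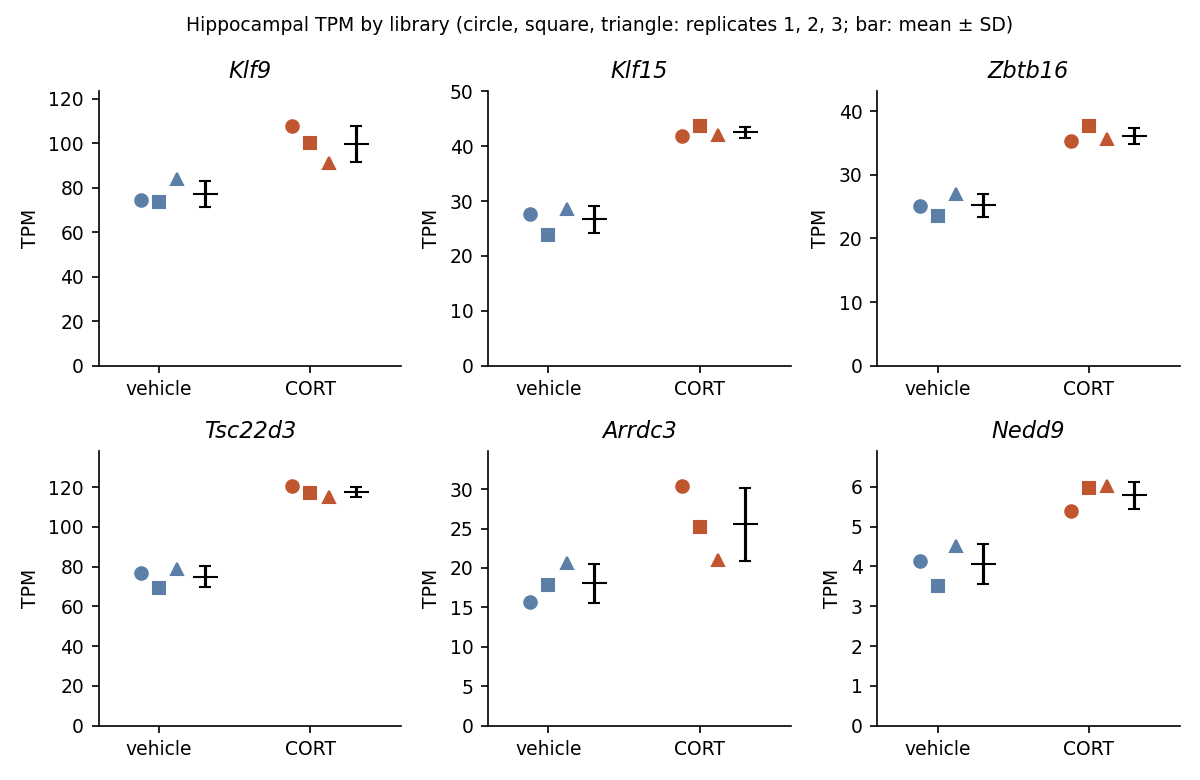
TPM of each member in the 3 vehicle and 3 CORT libraries, with a linear axis from 0 in each panel, a marker shape for each replicate number, and the mean ± SD (n = 3) beside the points. The groups do not overlap in any panel, and the gap is widest for Tsc22d3 (36.13 TPM) and narrowest for Arrdc3 (0.36 TPM).

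Among the transcription factors, Klf15 had the largest log2 fold change, whereas Klf9 gained more in TPM (22.4 against 15.9). Klf15, which in liver and muscle controls amino acid and glucose metabolism, had 27.62, 23.91 and 28.48 TPM in the vehicle libraries and 41.85, 43.62 and 42.12 TPM in the CORT libraries. The lowest CORT library was 1.47 times the highest vehicle library, and the CORT libraries lay closer together than the vehicle libraries. The means were 26.7 ± 2.43 TPM (SD, n = 3) with vehicle and 42.5 ± 0.954 TPM (SD, n = 3) with CORT. The log2 fold change of Klf15 was 0.66 (limma, SE 0.08, adjusted p = 0.000722).

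Klf9, a factor induced by glucocorticoids and thyroid hormone and known for its part in the maturation of hippocampal neurons, was expressed at a higher level than Klf15 and had a smaller log2 fold change. Its vehicle libraries had 74.32, 73.68 and 83.96 TPM, and its CORT libraries had 107.66, 100.14 and 91.28 TPM. CORT replicate 3 was only 1.09 times vehicle replicate 3, the closest approach of the groups for this gene. The mean went from 77.3 ± 5.76 TPM (SD, n = 3) to 99.7 ± 8.20 TPM (SD, n = 3). Its log2 fold change was 0.36 (limma, SE 0.08, adjusted p = 0.00945), the smallest of the 6. Relative to Klf9, Klf15 rose by a further 0.30 on the log2 scale, since the per-library log2 difference of Klf9 minus Klf15 changed by -0.30 (SE 0.09) and did not overlap between groups (exact permutation p = 0.1, the smallest possible, and 0.25 adjusted over 15 pairs of members).

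Zbtb16 was measured at 25.1, 23.51 and 26.99 TPM with vehicle and at 35.34, 37.63 and 35.58 TPM with CORT. The groups were separated by 8.35 TPM, several times the SD within either group. The means were 25.2 ± 1.74 TPM (SD, n = 3) and 36.2 ± 1.26 TPM (SD, n = 3), and the log2 fold change was 0.51 (limma, SE 0.08, adjusted p = 0.00183). With vehicle, Zbtb16 and Klf15 had nearly the same level, yet Klf15 rose by 0.15 more (SE 0.03) on the log2 scale, with no overlap of the per-library differences.

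Tsc22d3, the gene of the anti-inflammatory protein GILZ, had the largest gain in transcript level. Its vehicle libraries had 76.82, 69.02 and 78.95 TPM, and its CORT libraries had 120.39, 117.22 and 115.08 TPM. Every CORT library was at least 1.46 times the highest vehicle library. The means were 74.9 ± 5.23 TPM (SD, n = 3) and 118 ± 2.67 TPM (SD, n = 3), a gain of 42.6 TPM. Its log2 fold change of 0.65 (limma, SE 0.07, adjusted p = 0.00027) had the smallest p of the 6, at rank 28 of 2241. The log2 fold changes of Klf15 and Tsc22d3 differed by 0.01 (SE 0.03), less than their spread between libraries (exact permutation p = 0.7). With the GC correction described below they were further apart, at 0.74 for Klf15 and 0.58 for Tsc22d3.

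With vehicle, the adaptors Arrdc3 and Nedd9 had the highest coefficients of variation of the 6 members (13.8% and 12.3%). With CORT this held for Arrdc3 only, since that of Nedd9 (5.85%) was below that of Klf9 (8.22%). Arrdc3 had 15.71, 17.83 and 20.67 TPM in the vehicle libraries and 30.35, 25.24 and 21.03 TPM in the CORT libraries. CORT replicate 3 lay only 0.36 TPM above vehicle replicate 3, so that the groups almost met. The means were 18.1 ± 2.49 TPM (SD, n = 3) and 25.5 ± 4.67 TPM (SD, n = 3), with a coefficient of variation of 18.3% in the CORT group, the highest of any member. The log2 fold change of Arrdc3 was 0.47 (limma, SE 0.14, adjusted p = 0.0263). The call was lost without vehicle replicate 1 (adjusted p = 0.0837 from limma), vehicle replicate 2 (0.0607), CORT replicate 1 (0.0733) or CORT replicate 2 (0.0583), with a log2 fold change between 0.34 and 0.47 in those 4 fits.

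Nedd9, an adhesion scaffold also known to activate Aurora A kinase, was the least abundant member. It had 4.14, 3.52 and 4.51 TPM with vehicle and 5.4, 5.96 and 6.01 TPM with CORT. The groups were 0.89 TPM apart at their nearest libraries, more than the SD of either group. The means were 4.06 ± 0.50 TPM (SD, n = 3) and 5.79 ± 0.339 TPM (SD, n = 3), and the log2 fold change was 0.43 (limma, SE 0.12, adjusted p = 0.0204). Because its level is low, the added 1 TPM lowers this value, which was 0.51 with a pseudocount of 0.1. The call of Nedd9 was lost without vehicle replicate 2 (adjusted p = 0.0521 from limma), CORT replicate 2 (0.0634) or CORT replicate 3 (0.0596). In the annotation GENCODE M21 an exon of Nedd9 overlaps an exon of Gm32401 on the opposite strand, which is not among the listed genes. No exon of another gene overlapped the other 5 members there.

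**Figure D2:**
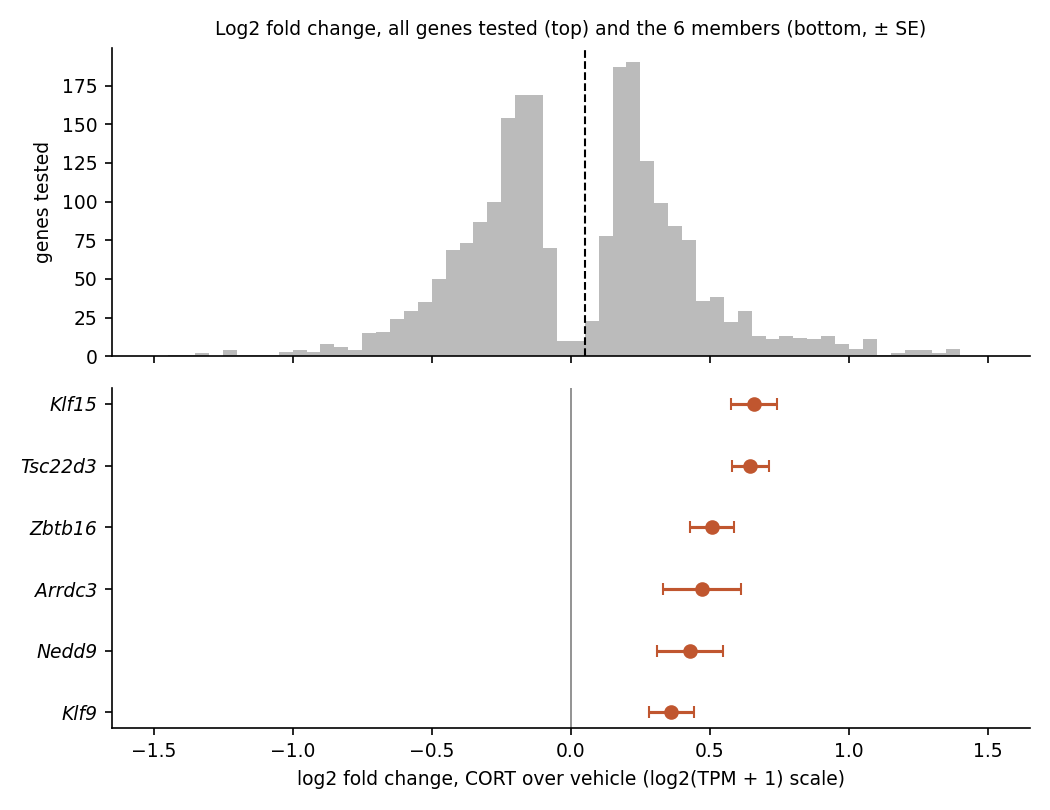
Histogram of log2 fold changes (CORT over vehicle) of the genes tested, drawn between -1.5 and 1.5 with 20 genes outside that range, and below it the 6 members with bars of 1 SE. The dashed line is the median of all genes tested (0.05), and few genes lie near 0 because only genes that differed were listed. The members lie between 0.36 (Klf9) and 0.66 (Klf15).

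The order of levels in the vehicle group was Klf9, Tsc22d3, Klf15, Zbtb16, Arrdc3 and Nedd9. Klf9 (77.3 TPM) and Tsc22d3 (74.9 TPM) did not differ beyond their spread, and nor did Klf15 (26.7 TPM) and Zbtb16 (25.2 TPM). In the CORT group the levels of Tsc22d3 all stood above those of Klf9, and those of Klf15 above those of Zbtb16. Of the 15 pairs of members, 6 had per-library differences that did not overlap between groups. Each of these 6 had an adjusted p of 0.25 (exact permutation test). In them the rise of Klf15 or Tsc22d3 was larger than that of Klf9, Zbtb16 or Nedd9. The pairs were not tested with the GC correction described below. With it the log2 fold changes of Tsc22d3 and Zbtb16 were nearly the same, at 0.58 and 0.56. The pairs reuse the same 6 genes, and the share of such pairs among other listed genes was not computed. None of the 15 could pass 0.05 with 3 libraries against 3. The 5 pairs with Arrdc3 had SEs of 0.10 to 0.21, and none of them separated the groups.

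Libraries of 1 group also differed among themselves in a shared way. Vehicle replicate 3 had the highest vehicle level for all 6 members, at a median of 0.11 above the vehicle mean on the log2 scale, and vehicle replicate 2 was the lowest for Klf9, Klf15, Zbtb16, Tsc22d3 and Nedd9, at a median over the 6 of -0.10. Over all genes tested the same 2 libraries had medians of 0.04 and -0.05. The summed TPM of the 6 members was 223.71, 211.47 and 243.56 in the vehicle libraries and 340.99, 329.81 and 311.10 in the CORT libraries. Among the CORT libraries, replicate 1 was the highest for Klf9, Tsc22d3 and Arrdc3 and the lowest for Klf15, Zbtb16 and Nedd9. The 6 genes therefore did not rank the 3 CORT libraries alike.

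Other direct targets of the glucocorticoid receptor, from a list of 30, were compared with the 6. Of these 26 were in the table and tested. Of the 26, 23 were called higher, beside 25.8% of all genes tested, 0 were called lower and 3 did not pass. The list was chosen with earlier results of these data known, and only genes found to differ were in the table. These counts are therefore not independent evidence of a response of receptor targets. The number lower was also 0 at an unadjusted p under 0.05 from limma, and it was 1 with quantile normalization or median scaling, where Cables1 passed. Their median log2 fold change was 0.61, against 0.49 for the 6 members and 0.05 for all genes tested. The number called higher ranged from 19 to 24 over the other settings, lowest without CORT replicate 1. Fkbp5, a co-chaperone that limits receptor signalling, had 45.49, 44.37 and 48.86 TPM with vehicle and 122.95, 126.81 and 114.7 TPM with CORT. Its log2 fold change of 1.37 (SE 0.07) was larger than that of any of the 6. Cdkn1a, which codes for the cell cycle inhibitor p21, Nfkbia, the inhibitor of NF-kB, and Angptl4, a lipase inhibitor, had log2 fold changes of 2.30, 1.36 and 1.34. Angptl4 had a vehicle mean of only 1.66 TPM, so the added 1 TPM lowers its value, which was 1.74 with a pseudocount of 0.1. The 3 genes that did not pass were Per1, Cdkn1c and Cables1, named after their values were seen, with log2 fold changes of 0.22, 0.78 and -0.19. The value of Cdkn1c was 0.46 without CORT replicate 3, and it was called higher at 1.05 without CORT replicate 2 (adjusted p = 0.0335 from limma) and at 0.95 with the GC correction (0.0418). Per1 was called higher at 0.39 with the GC correction (limma, adjusted p = 0.00847), and also without vehicle replicate 3 (0.0402) and with quantile normalization (0.0446).

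The receptor gene itself was lower. Of 18 genes of corticosteroid receptors, chaperones and coregulators, 6 were tested, 1 was called higher (Fkbp5), 3 were called lower and 2 did not pass. Beside these, 50.6% of all genes tested were called in either direction. Nr3c1, the glucocorticoid receptor, had 17.38, 17.5 and 18.31 TPM with vehicle and 12.71, 12.01 and 13.82 TPM with CORT, with no overlap. Its log2 fold change was -0.44 (limma, SE 0.09, adjusted p = 0.00634). Hsd11b1, the enzyme that regenerates active glucocorticoid inside cells, had one of -0.36 (SE 0.08), and the chaperone partner Fkbp4 one of -0.21 (SE 0.07). The call of Fkbp4 was lost in 7 of 14 other settings, where its adjusted p (limma) reached 0.173.

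The relatives of the 6 genes moved in both directions. So did the genes tested at large, of which 25.8% were called higher and 50.6% in either direction. Since only genes found to differ were listed, counts of calls among relatives and partners, here and below, are no result about a family. Of 15 other Krüppel-like factors 6 were tested, and Klf2, which is known for its role in endothelium, rose while Klf10 and Klf16 fell and 3 did not pass. The median log2 fold change of these 6 was -0.30. Klf10, a factor induced by TGF-beta, had 18.71, 18.59 and 17.93 TPM with vehicle and 12.67, 10.35 and 12.33 TPM with CORT, a log2 fold change of -0.61 (SE 0.10). Klf16 gave a value of -0.41 (SE 0.08) and Klf2 one of 0.41 (SE 0.13). The call of Klf2 was lost in 5 of 14 other settings, where its adjusted p (limma) reached 0.0941. Klf7, at -0.26 (adjusted p = 0.0653 from limma), did not pass. It was called lower in 4 of 14 other settings, which were quantile normalization, median scaling, the GC correction (-0.38, adjusted p = 0.0237 from limma) and the fit without vehicle replicate 2 (0.042).

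Among 45 other BTB zinc finger factors 8 were tested, of which 3 were called higher, 1 was called lower and 4 did not pass. The median log2 fold change was 0.24. Bcl6, a repressor that is also in the list of receptor targets, rose by 0.32 (SE 0.07), Zbtb7b by 0.38 (SE 0.09) and Zbtb1 by 0.37 (SE 0.11). Hic1, a tumour suppressor that represses transcription, had 3.63, 2.11 and 2.59 TPM with vehicle and 0.96, 1.22 and 1.33 TPM with CORT. Its log2 fold change was -0.78 (SE 0.17), and -1.16 with a pseudocount of 0.1, since the added 1 TPM weighs on its low level. The call of Zbtb1 was lost in 6 of 13 other settings, among them the GC correction described below (adjusted p = 0.202 from limma). With median scaling 3 of the 8 were higher and 3 lower.

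In the TSC22 family, Tsc22d1 was the 1 of 3 relatives of Tsc22d3 in the table. It was more abundant, at 303 ± 3.13 TPM (SD, n = 3) with vehicle and 339 ± 13.5 TPM (SD, n = 3) with CORT, and rose by less, with a log2 fold change of 0.16 (limma, SE 0.05, adjusted p = 0.0267). That call was lost in 5 of 14 other settings, where its adjusted p (limma) reached 0.155. Tsc22d1 kept a positive value under quantile normalization, median scaling and the GC correction.

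Of 7 arrestins and alpha-arrestins beside Arrdc3, 4 were tested and 2 rose. Arrdc2, the nearest in name and like Arrdc3 an alpha-arrestin, had 14.75, 12.81 and 15.31 TPM with vehicle and 41.85, 40.1 and 32.22 TPM with CORT. Its log2 fold change of 1.35 (limma, SE 0.11, adjusted p = 0.000107) was higher than that of Arrdc3 from a similar vehicle level. Txnip, an alpha-arrestin that inhibits thioredoxin and glucose uptake, rose by 0.87 (SE 0.10). Both were called in all 14 other settings, unlike Arrdc3. Arrdc4 and the beta-arrestin Arrb1 had log2 fold changes of 0.26 (SE 0.18) and -0.15 (SE 0.08) and did not pass. Without vehicle replicate 3 Arrdc4 was called higher at 0.47 (limma, adjusted p = 0.027), and Arrb1 was called lower without vehicle replicate 2 (0.0421) and with median scaling (0.046). The NEDD4-family ligases Nedd4l and Itch, partners of ARRDC3, had values of 0.19 and 0.13 and did not pass either, except for Nedd4l at 0.28 without vehicle replicate 3 (limma, adjusted p = 0.0176). The other 10 genes of that partner list were not analysed here.

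Partners of NEDD9 at adhesion sites were called in both directions, as were the genes tested at large (25.8% higher, 50.6% in either direction). Of 17 CAS scaffolds and focal adhesion genes 6 were tested, of which Crkl was called higher, 3 were called lower and 2 did not pass, with a median log2 fold change of -0.26. Tln1, which codes for the integrin activator talin, had 29.31, 27.31 and 25.61 TPM with vehicle and 18.61, 21.81 and 19.81 TPM with CORT, a log2 fold change of -0.43 (SE 0.09). Efs, another CAS scaffold, and Bcar3, which binds CAS proteins, had values of -0.35 (SE 0.12) and -0.32 (SE 0.11). The adaptor Crkl had one of 0.26 (SE 0.09). Only Tln1 of these 4 was called in all 14 other settings, and the calls of Efs, Bcar3 and Crkl were lost in 6, 7 and 6 of them. With any 1 library left out 1 or 2 of the 6 were lower, and with the GC correction 1 was lower and 0 were higher.

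Proteins that GILZ binds and genes known from other tissues as KLF15 targets were few in the table. Fos, a subunit of AP-1, had 18.46, 16.86 and 18.46 TPM with vehicle and 10.73, 13.02 and 11.35 TPM with CORT, a log2 fold change of -0.58 (SE 0.10). Its partner Jun had a value of -0.13 (adjusted p = 0.111 from limma) and passed only with median scaling (0.048) among 14 other settings. The other 9 genes of that list of 11 were not analysed here. Gpt2, a mitochondrial alanine transaminase, rose by 0.38 (SE 0.09), and Prodh, the proline dehydrogenase, gave a value of -0.46 (limma, SE 0.17, adjusted p = 0.0509). Prodh was called lower in 5 of 14 other settings, with its lowest adjusted p (0.0115, limma) without CORT replicate 1, and its others without vehicle replicate 3 (0.035) and with quantile normalization, median scaling or the filter at 5 TPM. These 2 were the tested genes of 11.

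**Figure D3:**
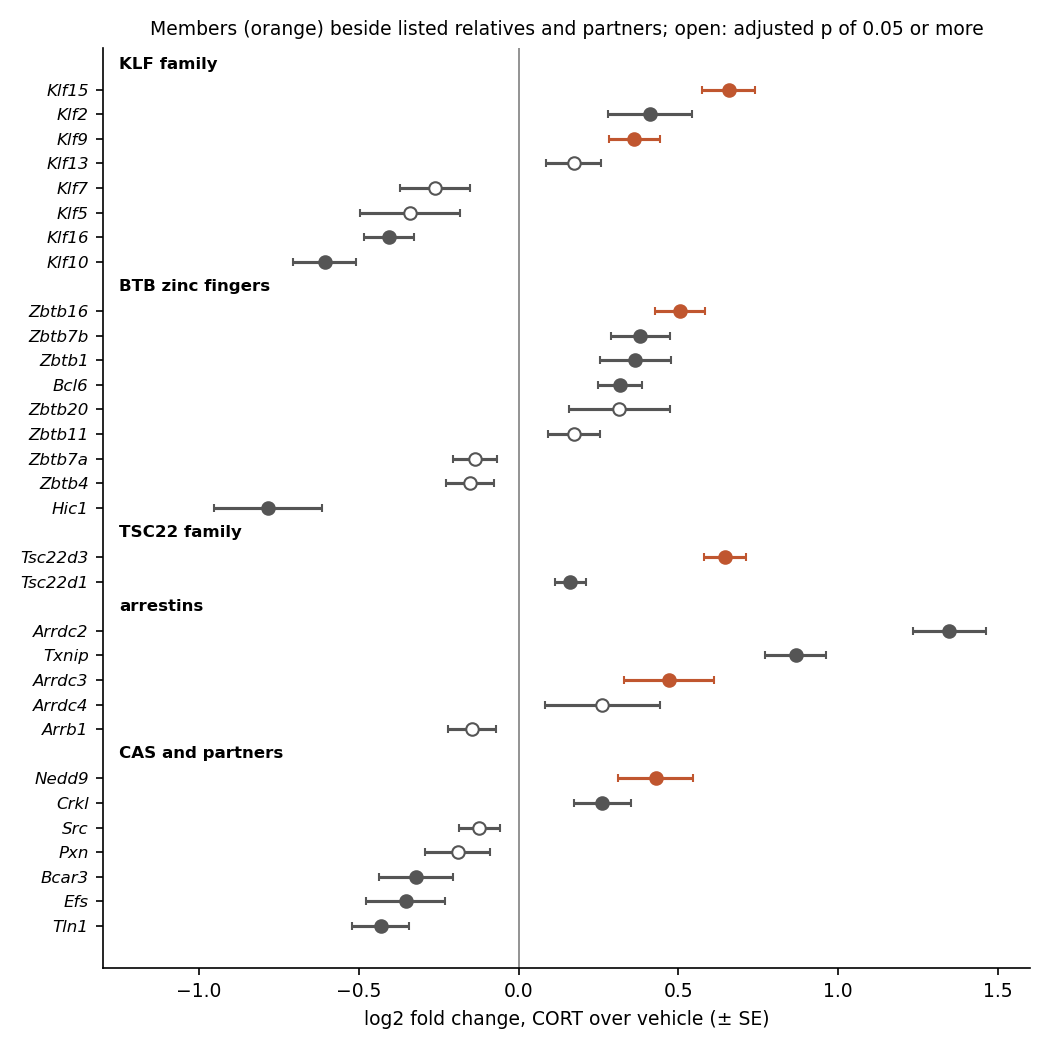
Log2 fold change (CORT over vehicle, bars of 1 SE) of the members in orange. In grey are the tested genes of the Krüppel-like, BTB, TSC22, arrestin and CAS lists. Nedd4l, Itch, Fos, Jun, Gpt2 and Prodh are not drawn. Filled points passed an adjusted p of 0.05 and open points did not. Klf10, Klf16 and Hic1 lie left of 0 while the members lie right of it, and Arrdc2 (1.35) lies farther right than Arrdc3 (0.47).

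The profiles most like each member were sought among all genes tested, as the smallest root mean square difference of log2(TPM + 1), relative to each gene's own vehicle mean, over the 6 libraries. Klf15 was nearest to Tsc22d3 (0.035) and then to Mideas (0.047), so that the closest profile to one member was another member. Tsc22d3 was nearest to Slc25a30 (0.026), a mitochondrial carrier, and to Mideas (0.027). The nearest to Zbtb16 were Rin3 and Rhob, a small GTPase, both at 0.03. Because the level of Rin3 is low, the added 1 TPM lowers its log2 change. In TPM its CORT mean was 1.71 times its vehicle mean, against 1.44 times for Zbtb16 and 1.41 times for Rhob. Klf9 was nearest to Dio2 (0.034), the deiodinase that makes active thyroid hormone, and to Plekhg1 (0.044). Nedd9 was nearest to Irs2 (0.037), an insulin receptor substrate, and to Rhpn2 (0.042). The profile of Arrdc3 was the least matched, with Cachd1 (0.083) and Gm14308 (0.089). Rhob was abundant, with 370 ± 19.3 TPM (SD, n = 3) against 520 ± 26.0 TPM (SD, n = 3). Rin3 was rare, with 1.68 ± 0.197 TPM against 2.88 ± 0.177 TPM (SD, n = 3). The measure takes out each gene's own vehicle level, so it says nothing about likeness of level. It was taken without the GC correction described below.

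Transcript GC content moved with the direction of change in these libraries and differs between the members. The longest transcript had a GC content of 40.6% for Arrdc3, 46.8% for Nedd9, 47.5% for Klf9, 48.3% for Tsc22d3, 53.6% for Zbtb16 and 54.9% for Klf15. Among the 244 other genes tested within 2 GC points of Arrdc3, 89.8% had a positive log2 fold change, with a median of 0.24. Among the 484 within 2 points of Klf15 the share was 35.1%, with a median of -0.14, and among the 465 near Zbtb16 it was 38.7%, with a median of -0.13. Klf15 exceeded 94.0% of its GC neighbours, Tsc22d3 93.4%, Arrdc3 90.6%, Zbtb16 89.5%, Nedd9 84.4% and Klf9 79.7%. After a smooth trend with GC content was removed from each library, the log2 fold changes of Klf15 and Zbtb16 were 0.74 and 0.56 and those of Tsc22d3, Nedd9 and Klf9 were 0.58, 0.34 and 0.28, all still called. That of Arrdc3 was 0.29 and no longer passed (adjusted p = 0.0826 from limma). The part of GC content in the result for Arrdc3 was not tested beyond this.

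**Figure D4:**
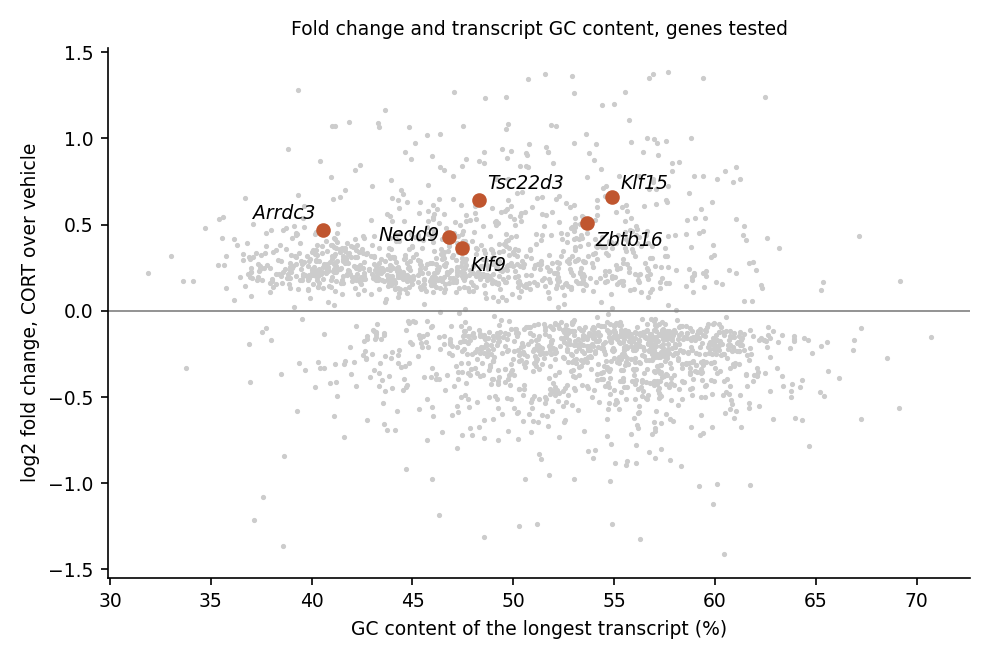
Log2 fold change (CORT over vehicle) against the GC content (%) of the longest transcript for the genes tested (grey, drawn between -1.5 and 1.5) and the 6 members (orange). Arrdc3 at 40.6% GC lies where nearly all genes are above 0, whereas Klf15 at 54.9% and Zbtb16 at 53.6% lie where most genes are below 0.

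Some markers of other cell types that a dissected hippocampus holds were also called. Their part in the values of the 6 members was not tested. Among all genes tested 50.6% were called in either direction, and only genes found to differ were listed. The counts of marker calls are therefore no measure of cell types. Of 6 microglial markers 2 were in the table and both were lower, with a summed level of 45.6 to 51.3 TPM with vehicle and 21.4 to 25.4 TPM with CORT. All 6 endothelial markers were tested, 1 was higher and 3 were lower, with a median log2 fold change of -0.34. Their sum nevertheless went from 146 to 169 TPM up to 177 to 188 TPM, because the glucose transporter gene Slc2a1 alone had a mean of 73.7 TPM with vehicle and 135 TPM with CORT. Cldn5, a tight junction gene, had means of 48.7 TPM and 17.7 TPM, and the values of the other 4 were also negative. Of 5 oligodendrocyte precursor markers 2 were tested and 1 was lower, with sums of 38.0 to 50.4 TPM and 23.4 to 26.2 TPM. The 1 oligodendrocyte marker tested of 6, Mobp, was higher, at 478 to 648 TPM with vehicle and 628 to 885 TPM with CORT. That call was lost without vehicle replicate 1, vehicle replicate 2, CORT replicate 1 or CORT replicate 2, with log2 fold changes of 0.40 to 0.50. Of 6 excitatory neuron markers 3 were tested and 2 were lower, with sums of 292 to 318 TPM and 238 to 247 TPM. Neither of the 2 astrocyte markers tested of 6 passed. With the GC correction 3 excitatory and 2 astrocyte markers were called lower, and with median scaling 3 and 1. Without vehicle replicate 1 the 3 excitatory markers were called lower as well. Of 5 pericyte markers 3 were tested, 1 higher and 1 lower, with sums of 95.2 to 109 TPM and 85.2 to 91.2 TPM. The higher call, of Rgs5, was lost with the GC correction, with quantile normalization and without vehicle replicate 1, vehicle replicate 2, CORT replicate 1 or CORT replicate 2. Folr1, the choroid plexus marker in the table, had 1.95, 1.33 and 3.2 TPM with vehicle and 3.73, 2.1 and 22.52 TPM with CORT, so that CORT replicate 3 stood apart. Without that library 5 members were called, with log2 fold changes of 0.41 (Nedd9, the one not called) to 0.66. No marker in the table was at 0 in any library, and markers of interneurons and blood were not analysed here.

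**Figure D5:**
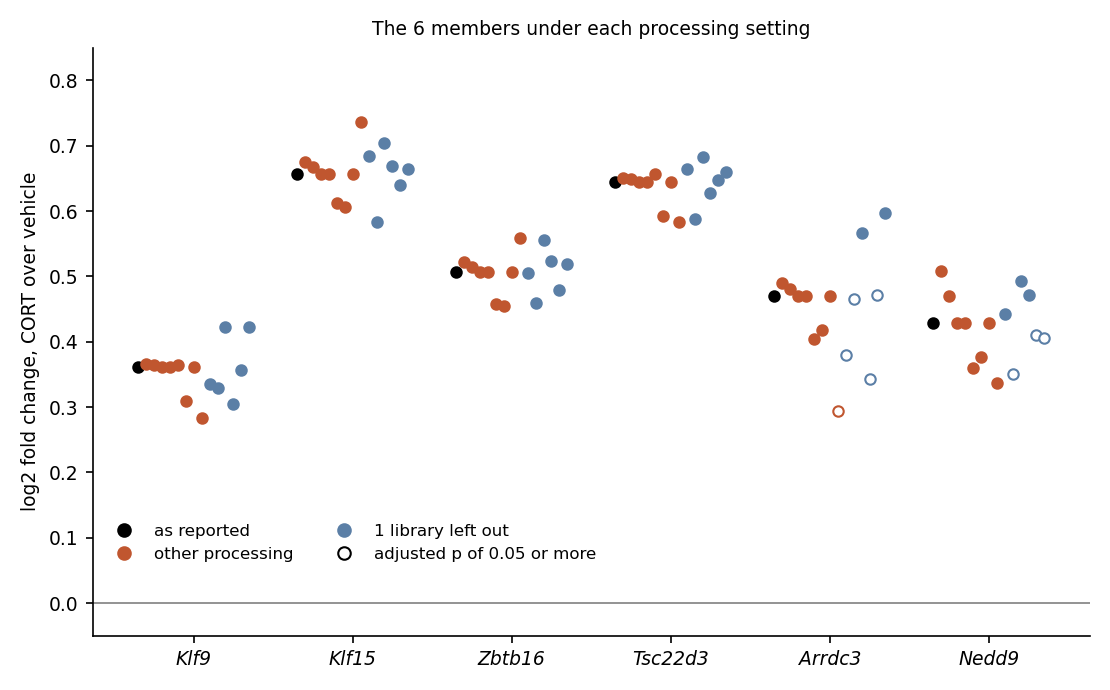
Log2 fold change of each member (CORT over vehicle) as reported (black), under 8 other processing settings (orange) and with each of the 6 libraries left out (blue). Open points had an adjusted p of 0.05 or more from limma. All points lie above 0, and open points occur for Arrdc3 and Nedd9 alone.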

How the data were processed

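Hippocampal RNA was sequenced in 3 libraries from CORT-treated and 3 from vehicle-treated mice. Per the methods, the authors trimmed paired-end reads with fastp, aligned them with HISAT2, assembled them with StringTie and quantified them with RSEM as TPM. The submitters' processing notes name GRCm39, while the versions of these tools and of the annotation were not given in the sources used here. TPM values computed by the authors make up the deposited table of 2404 genes. Its further columns hold the authors' fold change, log2 fold change and p-value, which were not used. TPM keeps no depth, so no precision from read number could be given. Replicates carry the numbers in the table's headings, since no heading could be tied to 1 sample title, and all 6 value columns were used. No label ties a library to an animal, so p-values measure the spread between these libraries.

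Log2(TPM + 1) was tested with limma 3.58.1 (lmFit, eBayes with trend and robust options) in R 4.3.3, over the 2241 genes that reached 1 TPM in 3 or more libraries. P-values were two-sided and adjusted by the Benjamini-Hochberg method. Since the table holds TPM, the count-based test of the authors was not repeated. The 6 members and the 10 pathway and 10 marker lists were chosen with earlier results of these data known. Named genes were the members, the 4 genes of each pathway list with the smallest p, and the 2 genes with the profile nearest to each member. GC content was that of the longest GENCODE M21 transcript, matched by gene identifier for 99.9% of listed genes, and a spline with 4 degrees of freedom was removed for the GC correction. The GC neighbours of a member were genes within 2 points. Fitting was tested on simulated data. Tables were made with pandas 2.3.3 and numpy 2.4.6 in Python 3.11.15, and plots with matplotlib 3.10.9. Alternatives were pseudocounts of 0.1 and 0.5, other filters, quantile normalization, median scaling, plain moderation, the GC correction, a threshold of 0.01 and leaving out each library.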

Additional observations from a re-analysis of the deposited data

How the results depend on the processing

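The log2 fold changes of all 6 members were positive in all 14 other fits. Klf9, Klf15, Zbtb16 and Tsc22d3 were called in each, and leaving out 1 library gave log2 fold changes of 0.31 to 0.42, 0.58 to 0.70, 0.46 to 0.56 and 0.59 to 0.68. Arrdc3 ranged from 0.34 to 0.60 and was called in 2 of those 6 fits, and with the GC correction it was 0.29. Nedd9 ranged from 0.35 to 0.49 and was called in 3 of 6. The number of members called was 4 to 6 over the left-out libraries, 5 with the GC correction and 4 at an adjusted p under 0.01 from limma. In all 1133 genes were called, against 620 to 1187 over the left-out libraries, with 620 without vehicle replicate 1, and 715, 644 and 717 without CORT replicates 1, 2 and 3. At an adjusted p under 0.01 they numbered 328. Of the calls 579 were higher and 554 lower (51.1% higher), against 485 and 772 (38.6% higher) with median scaling, which lowered the median of all genes from 0.05 to -0.00226. Without vehicle replicate 3 the share of calls that were higher was 61.4%. With a pseudocount of 0.1, tried for the differences between members after the data were seen, Klf15 minus Nedd9 was 0.17 and Zbtb16 minus Nedd9 0.0135 (as reported 0.23 and 0.08), since the added 1 TPM weighs most on Nedd9. Itch turned from 0.13 to -0.028 with the GC correction (limma, adjusted p = 0.824). The causes of the other changes were not tested. No paired analysis was possible because the labels' replicate numbers run from 1 to 3 for vehicle and from 3 to 5 for CORT, and the columns are not tied to them.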
